A study of Mus musculus with 9 samples.

Results

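The ligands of the tumour necrosis factor (TNF) superfamily described here are *Tnf*, *Lta*, *Ltb*, *Cd40lg*, *Tnfsf8*, *Tnfsf10*, *Tnfsf11* and *Tnfsf14*, chosen by gene symbol as 8 of the 21883 genes quantified in mouse thymic invariant natural killer T (iNKT) cells. The RNA of 9 libraries was measured, 3 each from iNKT cells of WT mice at stage 2, of WT mice at stage 3 and of *Med23*-deficient mice at stage 2, all sorted from the thymus of C57BL/6 mice. WT mice were 6 weeks old, and the labels give no age for the *Med23*-deficient mice; the study's methods give 1 age range, and both sexes, for the mice of all experiments. The WT groups carried no stated transgene. The *Med23*-deficient cells came from mice with a floxed *Med23*, a Mediator subunit gene, and a *Cd4*-driven Cre, so that the gene was removed by the double-positive thymocyte stage in all T cells that descend from it and not in iNKT cells alone. Cells binding the CD1d-PBS57 tetramer were taken as stage 2 when low for CD24, high for CD44 and low for NK1.1, and as stage 3 when high for NK1.1. Stage 3 follows stage 2 in normal maturation, and no *Med23*-deficient stage 3 group was analysed here. The number of mice behind a library is not given and the labels do not say whether the libraries of a group come from separate mice, so every p below measures only the spread between these libraries, part of which may be technical. The study's methods call its data representative of 3 independent experiments, without saying how these map to the libraries. The sample numbers of the *Med23*-deficient libraries do not continue those of the WT libraries. Whether both genotypes were prepared together is not stated, so differences of genotype and of preparation cannot be told apart.

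TNF superfamily ligands are made mostly as trimeric proteins anchored in the membrane, some of which are shed, and they act on neighbouring cells through receptors of the TNF receptor superfamily. The receptors pass the signal on through TRAF adaptors to NF-kB, or through death domains to caspases. In the thymus, RANK ligand (*Tnfsf11*), CD40 ligand (*Cd40lg*) and the lymphotoxins from T lineage cells instruct the medullary epithelium, and iNKT cells are among the sources of RANK ligand there. iNKT cells also use CD40 ligand to activate dendritic cells and B cells.

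The promoters of the 4 ligands on which the differences between groups below turn are shown first, as the 250 bases before the RefSeq start site (GRCm38.p6, the mm10 build of the data), 5′ to 3′ on the strand of the gene. Capitals mark each match, on either strand, to the AP-1 motif TGANTCA or to the NFAT core GGAAA, which reads TTTCC on the opposite strand.
Tnfsf11, chr14:78308044-78308293, minus strand: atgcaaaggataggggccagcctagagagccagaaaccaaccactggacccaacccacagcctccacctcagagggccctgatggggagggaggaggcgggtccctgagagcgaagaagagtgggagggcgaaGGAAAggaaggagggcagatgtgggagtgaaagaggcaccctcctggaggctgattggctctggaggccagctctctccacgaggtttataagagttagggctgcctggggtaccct
Tnfsf14, chr17:57194182-57194431, minus strand: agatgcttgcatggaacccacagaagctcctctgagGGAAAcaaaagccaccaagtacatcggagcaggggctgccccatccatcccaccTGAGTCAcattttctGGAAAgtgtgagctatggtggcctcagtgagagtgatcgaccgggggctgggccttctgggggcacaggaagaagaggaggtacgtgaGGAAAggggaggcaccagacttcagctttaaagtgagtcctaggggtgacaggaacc
Tnfsf10, chr3:27316827-27317076, plus strand: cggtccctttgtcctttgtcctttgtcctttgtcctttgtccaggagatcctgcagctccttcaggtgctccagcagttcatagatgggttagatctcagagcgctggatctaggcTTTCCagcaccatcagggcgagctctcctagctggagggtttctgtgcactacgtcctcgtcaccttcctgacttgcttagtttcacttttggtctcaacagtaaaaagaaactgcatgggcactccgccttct
Lta, chr17:35205352-35205601, minus strand: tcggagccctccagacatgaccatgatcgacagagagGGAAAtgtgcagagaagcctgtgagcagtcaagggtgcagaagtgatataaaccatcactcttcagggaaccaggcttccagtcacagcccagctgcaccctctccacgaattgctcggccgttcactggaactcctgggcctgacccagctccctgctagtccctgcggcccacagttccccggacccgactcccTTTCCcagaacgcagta
The search covered 300 bases, these 250 and the 50 that follow the start, in the 7 ligands of 8 that had an entry. *Tnfsf14* was the 1 ligand of the 7 with an AP-1 match, TGAGTCA, at bases 91 to 97 of the stretch shown, and 7.81% of all 32851 promoters of the same length hold one. It also held 4 matches to the NFAT core, of which the last lies after the start and outside the stretch shown. *Tnf* and *Lta* held 3 each and *Ltb*, *Tnfsf8*, *Tnfsf10* and *Tnfsf11* held 1 each, against 61.3% of all promoters with at least 1. A match to the kB consensus was found in *Ltb*, as GGAAAGTCCC starting 87 bases before the start site, where it overlaps the NFAT core of that promoter, and 4.51% of all promoters hold a kB match. A match is a string of letters and shows no binding.

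The values are FPKM, fragments scaled for transcript length and for the mapped reads of the library, so levels can be compared between genes. With no counts at hand the sequencing depth cannot be stated and intervals for counting error are not given, but between 15584 and 17333 genes lay above 0 per library. All 7 markers of iNKT and T cells reached a mean of 1 FPKM in each group. Of these, *Zbtb16* lay at 87.96 to 112.43 FPKM in WT stage 2 and 22.72 to 33.37 in WT stage 3, and *Cd4* at 49.01 to 51.91 and 17.17 to 25.42. *Cd44* was higher in WT stage 3, at 47.73 to 49.08 against 33.71 to 45.80 in WT stage 2. *Cd3d*, *Cd3e*, *Cd3g* and *Trac* overlapped between the WT stages. The summed level of the B cell, myeloid, erythroid and thymic epithelial markers analysed here was at most 1.69 FPKM per list in any library, and that of double-positive thymocyte markers 1.67 to 4.99. *Klrb1c*, which encodes the NK1.1 used for the gate, lay at 57.27 to 95.09 FPKM in stage 3, at 7.65 to 26.24 in WT stage 2 and at 2.61 to 4.60 in *Med23*-deficient cells. *Med23* itself measured 5.51, 5.15 and 6.74 FPKM in WT stage 2, 7.14, 4.44 and 6.12 in WT stage 3, and 4.80, 3.60 and 3.92 in *Med23*-deficient cells (log2 fold change -0.41 against WT stage 2, standard error (SE) 0.18, adjusted p = 0.552 in limma); this value pools all exons and does not check the deleted part. WT stage 3 replicate 2 stood apart, with *Xist* at 47.45 FPKM and the Y-linked *Ddx3y*, *Eif2s3y* and *Uty* at 0, whereas the other 8 libraries had *Xist* at 0.01 or less and *Ddx3y* at 9.76 or more. Mice of both sexes were used in the study, and results called against WT stage 3 are given without this library as well.

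The ligands were tested in a limma fit to log2(FPKM + 1) of all genes above 0 in at least 1 of the 6 libraries compared. A gene was called by the thresholds of the study, a fold change of at least 2 on this scale with an unadjusted p of at most 0.05, and separately by an adjusted p (Benjamini-Hochberg, over all genes fitted) of at most 0.05. Between WT stages, 2 of the 8 ligands passed the fold and p thresholds, both lower in stage 3, where 3.60% of 20689 genes passed. By adjusted p, 1 ligand passed, against 1.67% of genes. In 6 ligands the stages did not overlap, 3 higher and 3 lower in stage 3, which was so for 17.8% of genes. Between *Med23*-deficient and WT stage 2 cells, 1 ligand was past fold and p, higher, against 2.11% of 20674 genes, and 2 did not overlap, against 14.0%. None passed the limma adjusted p there, which 0.213% of genes did; 3 ligands had an unadjusted p of at most 0.05, against 9.58% of genes, and the Ballgown-style linear model also passed 0 by adjusted p. Between *Med23*-deficient stage 2 and WT stage 3 cells, 1 ligand was past fold and p, against 2.86% of 20846 genes, 2 passed by adjusted p, against 1.33%, and 5 did not overlap, against 14.2%. *Tnfsf8*, at 1.30 FPKM or less in every library, is counted among the ligands without overlap in both comparisons with WT stage 2. The comparisons share libraries and are not independent of each other. The median log2 fold change of the ligands was 0.23, 0.34 and 0.44 in the order given, and that of all genes tested was -0.01, -0.01 and 0.00. With no more than 8 members these counts are small, and the ligands are described one by one below.

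**Figure D1:**
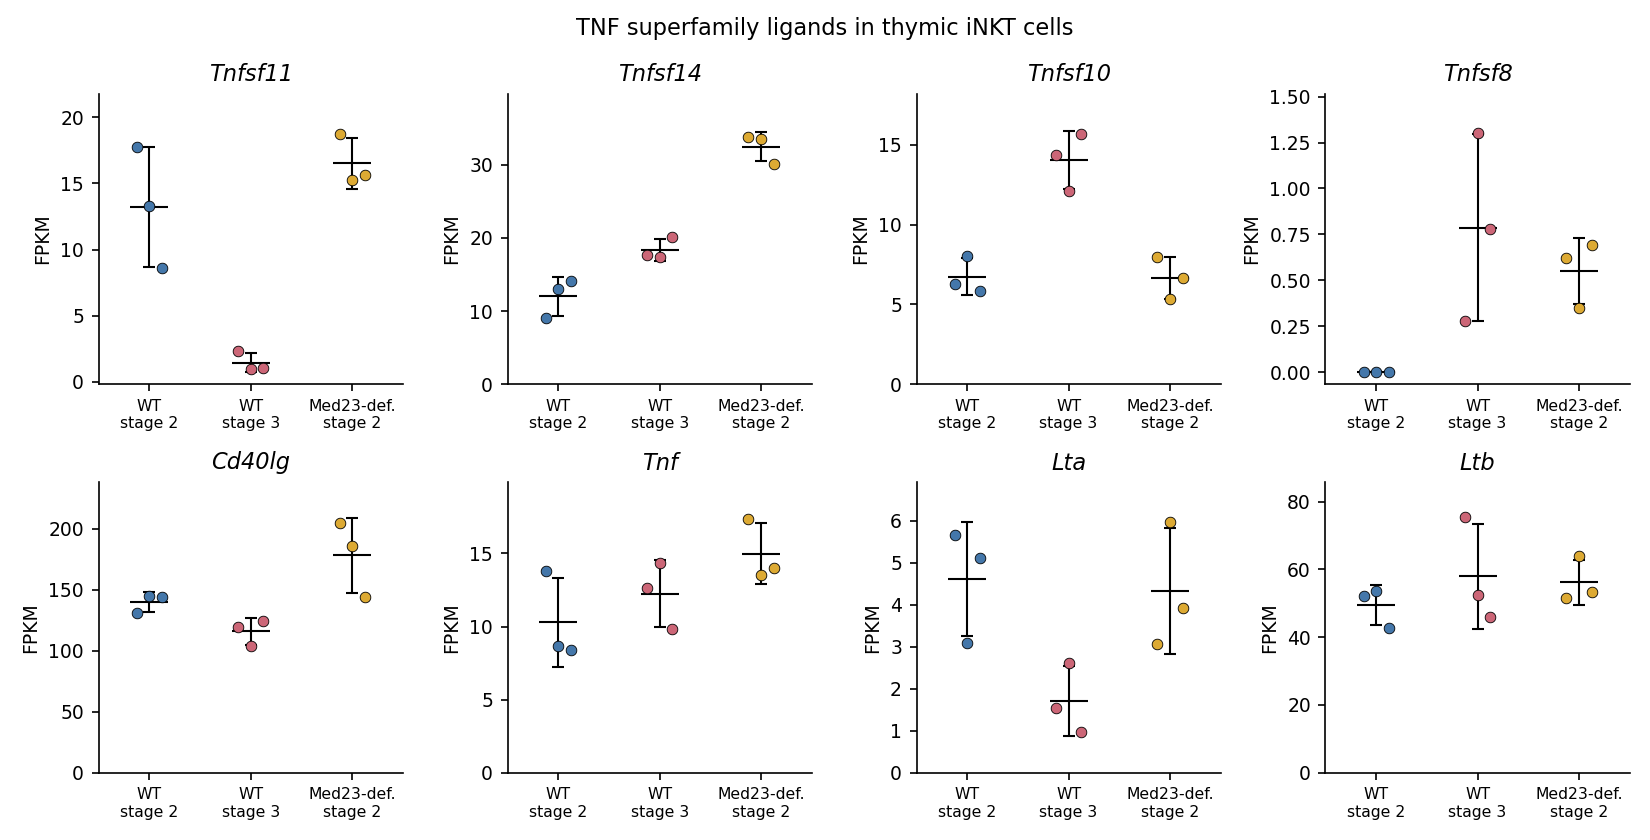
FPKM of the 8 ligands (y axis, linear, 1 scale per gene) by group (WT or *Med23*-deficient, Med23-def.); points are libraries in the order of replicates 1 to 3, and bars give the mean and SD (n = 3). *Tnfsf11* sits at 0.98 to 2.28 in stage 3 and at 8.61 to 18.73 in both stage 2 groups, *Tnfsf14* is at 30.13 to 33.78 in *Med23*-deficient cells and no higher than 20.12 elsewhere, and *Tnfsf10* is at 12.09 to 15.68 in stage 3 and no higher than 8.04 elsewhere.

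*Tnfsf11* (ENSMUSG00000022015, chromosome 14, 78277445 to 78308043, minus strand, mm10) encodes RANK ligand, the signal for RANK on medullary epithelial and osteoclast precursor cells. It measured 17.75, 13.28 and 8.61 FPKM in WT stage 2, 2.28, 0.98 and 1.04 in WT stage 3, and 18.73, 15.23 and 15.62 in *Med23*-deficient stage 2. All 3 stage 3 libraries lay well under every stage 2 library of either genotype, and the 2 stage 2 groups overlapped. The mean fell between WT stages from 13.2 ± 4.57 to 1.43 ± 0.734 FPKM (SD, n = 3 each), which is -2.53 on the log2 scale (SE 0.33, adjusted p = 0.0298 in limma). In *Med23*-deficient cells it averaged 16.5 ± 1.92 FPKM (SD, n = 3), which was 11.5 times the stage 3 mean (log2 fold change 2.88, SE 0.24, adjusted p = 0.00844 in limma). The difference between the genotypes at stage 2 was 0.35 on the log2 scale (SE 0.25, adjusted p = 0.731 in limma) and did not pass. Without WT stage 3 replicate 2 the log2 fold changes from stage 3 were -2.41 (adjusted p = 0.0994 in limma) and 2.75 (adjusted p = 0.0425 in limma). The fold and p thresholds were passed in both of these comparisons with any 1 library left out, whereas the adjusted p between WT stages rose to between 0.0617 and 0.119 whichever library was left out.

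Markers of iNKT subsets also moved between these groups. The 3 NKT2 markers *Gata3*, *Il4* and *Il13* summed to 57.41 to 74.05 FPKM in WT stage 2, 38.66 to 39.68 in WT stage 3 and 94.19 to 113.36 in *Med23*-deficient cells, and the 3 NKT1 markers *Tbx21*, *Ifng* and *Il2rb* to 142.57 to 161.21, 387.61 to 438.85 and 132.81 to 201.96. The gamma delta T cell list of 4 genes summed to 231.74 to 254.72 FPKM, 218.83 to 238.62 and 4.13 to 9.11 in the same order. Its defining gene *Trdc* was at 0.38 or less in every library. In the WT libraries the sums came mostly from *Tcrg-C1* and *Tcrg-C2*. In *Med23*-deficient cells *Tcrg-C1* lay at 0.83 to 5.47 FPKM, *Tcrg-C2* at 0.23 to 1.48 and *Sox13*, also on the list, at 2.10 to 4.32. In bulk RNA a smaller share of cells of a type and less RNA per cell cannot be told apart, and the part of these subsets in the levels of the ligands was not tested.

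*Tnfsf14* (ENSMUSG00000005824, chromosome 17, 57189492 to 57194189, minus strand) encodes LIGHT, which binds HVEM on T cells and the lymphotoxin beta receptor on stromal cells. It measured 9.04, 12.98 and 14.08 FPKM in WT stage 2, 17.66, 17.39 and 20.12 in WT stage 3, and 33.78, 33.46 and 30.13 in *Med23*-deficient stage 2. No 2 groups overlapped, and WT stage 2 lay lowest and *Med23*-deficient stage 2 highest. Its stage 2 mean was 12.0 ± 2.65 FPKM in WT and 32.5 ± 2.02 FPKM in *Med23*-deficient cells (SD, n = 3 each), 2.70 times higher. By the fold and p thresholds *Tnfsf14* thus rose, by 1.38 on the log2 scale (SE 0.17), while its adjusted p in limma, 0.0586, just missed. With each library left out in turn the log2 fold change stayed between 1.20 and 1.50 and passed those thresholds each time. Against WT stage 3 (18.4 ± 1.50 FPKM, SD, n = 3) it was higher by 0.79 (SE 0.10, adjusted p = 0.0234 in limma), short of a 2-fold change; the adjusted p was between 0.0538 and 0.105 with any 1 library left out, the latter without WT stage 3 replicate 2. The difference between WT stages, 0.59 (SE 0.18, adjusted p = 0.214 in limma), did not pass. The *Tnfsf14* promoter printed above holds the AP-1 match, and any part of that match in these levels was not tested.

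*Tnfsf11* and *Tnfsf14* thus took different orders over the groups. The ratio of *Tnfsf14* to *Tnfsf11* FPKM was 0.509, 0.977 and 1.64 in WT stage 2, 7.75, 17.7 and 19.3 in WT stage 3, and 1.80, 2.20 and 1.93 in *Med23*-deficient stage 2. RANK ligand messages were at least as frequent as LIGHT messages in 2 of 3 WT stage 2 libraries and in no library of the other groups. This ratio was formed after the values were seen and was not tested.

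**Figure D2:**
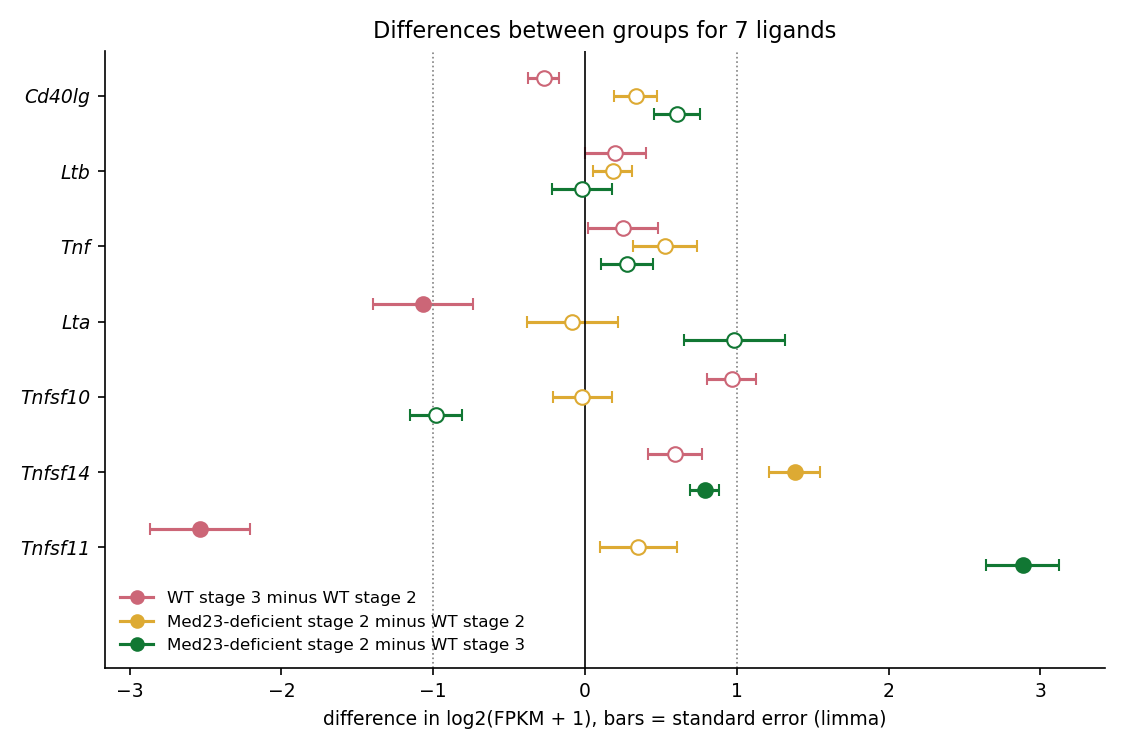
Differences in log2(FPKM + 1) between groups (x axis) for 7 ligands (y axis), with limma standard errors; filled points passed the fold and p thresholds or the adjusted p, open points passed neither, and dotted lines mark a 2-fold change. The farthest points are *Tnfsf11* at -2.53 and 2.88 and *Tnfsf14* at 1.38, and *Tnfsf8* is left out because all WT stage 2 libraries list it at 0.

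*Tnfsf10* (ENSMUSG00000039304, chromosome 3, 27317028 to 27342427, plus strand) encodes TRAIL, a ligand that can trigger apoptosis through the death receptor encoded by *Tnfrsf10b*. It measured 6.30, 8.04 and 5.83 FPKM in WT stage 2, 14.36, 12.09 and 15.68 in WT stage 3, and 7.96, 5.35 and 6.63 in *Med23*-deficient stage 2. The stage 3 libraries all lay above the stage 2 libraries, and the genotypes overlapped at stage 2. The mean was 6.72 ± 1.16 FPKM (SD, n = 3) in WT stage 2 and 14.0 ± 1.82 FPKM (SD, n = 3) in WT stage 3, a ratio of 2.09. On the log2(FPKM + 1) scale the difference was 0.97 (SE 0.16, adjusted p = 0.0556 in limma) and just missed both thresholds. With a common upper quartile (1.04, adjusted p = 0.0448 in limma) or quantile normalization (1.03, adjusted p = 0.0479) it passed both. It reached the fold and p thresholds when replicate 2 of WT stage 2 (1.08) or of WT stage 3 (1.06) was left out. The adjusted p in limma was then 0.0709 and 0.114. With any other library left out it missed the fold threshold, down to 0.88. On the TPM scale it was 0.87 (adjusted p = 0.119 in limma), and with the replicate block the adjusted p in limma was 0.181. The difference of *Med23*-deficient cells (6.65 ± 1.31 FPKM, SD, n = 3) from WT stage 3 was -0.98 (SE 0.17, adjusted p = 0.0728 in limma) and likewise missed both. Without WT stage 3 replicate 2 it was -1.08 and without *Med23*-deficient replicate 1 it was -1.10, both past the fold and p thresholds. These were the 2 of 6 such fits that passed, and the weakest gave -0.86. Between the genotypes at stage 2 the difference was -0.02 (SE 0.20, adjusted p = 0.975 in limma).

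*Lta*, *Tnf* and *Ltb* lie side by side in the major histocompatibility complex region of chromosome 17 within 10913 bases, with 1157 bases between *Tnf* and *Lta* and 3060 between *Ltb* and *Tnf*. Lymphotoxin alpha, the product of *Lta* (ENSMUSG00000024402, 35203165 to 35205351, minus strand), is secreted as a trimer that binds TNF receptors, or joins lymphotoxin beta, the product of *Ltb* (ENSMUSG00000024399, 35194439 to 35196320, plus strand), in a membrane-bound complex that signals through the lymphotoxin beta receptor. *Tnf* (ENSMUSG00000024401, 35199381 to 35202007, minus strand) encodes TNF. These neighbours had different patterns.

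*Lta* measured 5.66, 3.08 and 5.10 FPKM in WT stage 2, 1.53, 2.61 and 0.97 in WT stage 3, and 3.06, 5.97 and 3.92 in *Med23*-deficient stage 2. Its stage 3 values lay below all stage 2 values of either genotype, as *Tnfsf11* was, but by less. The mean of *Lta* was 4.61 ± 1.36 FPKM in WT stage 2 and 1.70 ± 0.834 FPKM in WT stage 3 (SD, n = 3 each). It fell by the fold and p thresholds (log2 fold change -1.07, SE 0.33), and its adjusted p in limma, 0.227, did not pass. The call was lost without WT stage 2 replicate 1 (-0.93), WT stage 2 replicate 3 (-0.99) or WT stage 3 replicate 3 (-0.86), and held without WT stage 3 replicate 2 (-1.30). The value in *Med23*-deficient cells, 4.32 ± 1.50 FPKM (SD, n = 3), was 0.98 above stage 3 (SE 0.33, adjusted p = 0.36 in limma) and did not pass. It reached 1.22 without WT stage 3 replicate 2 and 1.16 without *Med23*-deficient replicate 1, both past the fold and p thresholds. These were the 2 of 6 such fits that passed, and the weakest gave 0.77. Of the 11 other alternatives 2 passed fold and p. A microRNA gene model, *Mir6974*, lies in *Lta* outside the exons annotated by GENCODE and was listed at a mean of 0.167 FPKM in WT stage 2 and at 0 in the other groups.

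*Tnf* measured 13.80, 8.66 and 8.39 FPKM in WT stage 2, 12.62, 14.32 and 9.84 in WT stage 3, and 17.39, 13.55 and 14.01 in *Med23*-deficient stage 2. The groups overlapped in each comparison. The means were 10.3 ± 3.05, 12.3 ± 2.26 and 15.0 ± 2.10 FPKM (SD, n = 3 each), and the log2 differences of *Med23*-deficient cells were 0.53 from WT stage 2 (SE 0.21, adjusted p = 0.509 in limma) and 0.28 from WT stage 3 (adjusted p = 0.705 in limma). The WT stages differed by 0.25 (SE 0.23, adjusted p = 0.669 in limma). *Tnf* exceeded *Lta* in all 9 libraries, by 1.65 to 2.81 times in WT stage 2, 5.49 to 10.1 times in WT stage 3 and 2.27 to 5.68 times in *Med23*-deficient cells.

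*Ltb* measured 52.02, 53.60 and 42.80 FPKM in WT stage 2, 75.53, 52.33 and 46.04 in WT stage 3, and 51.58, 63.83 and 53.24 in *Med23*-deficient stage 2. All 3 groups overlapped, and WT stage 3 spread most because of replicate 1. The means were 49.5 ± 5.83, 58.0 ± 15.5 and 56.2 ± 6.65 FPKM (SD, n = 3 each). The log2 differences were 0.20 between WT stages, 0.18 between genotypes at stage 2 and -0.02 between *Med23*-deficient and WT stage 3 cells (SE 0.20, 0.13 and 0.20; adjusted p = 0.687, 0.731 and 0.976 in limma). *Ltb* therefore exceeded *Lta*, its partner in the membrane complex, in every library. A microRNA gene model, *Mir6973a* (35194972 to 35195049), lies in *Ltb* outside its annotated exons and was listed at mean values of 3.46, 11.4 and 11.5 FPKM in the 3 groups; reads of *Ltb* that are not spliced there and reads of the microRNA gene cannot be told apart.

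*Cd40lg* (ENSMUSG00000031132, chromosome X, 57212143 to 57224042, plus strand) encodes CD40 ligand, which acts on CD40 of dendritic cells, B cells and medullary epithelium. It was the most abundant of the 8 messages in all 9 libraries and ranked between 130 and 275 among all genes of a library. It measured 130.89, 144.92 and 143.99 FPKM in WT stage 2, 119.28, 103.76 and 124.33 in WT stage 3, and 204.52, 186.10 and 144.41 in *Med23*-deficient stage 2. Stage 3 lay below WT stage 2 and below *Med23*-deficient cells in every library, and the genotypes overlapped at stage 2. The means were 140 ± 7.85, 116 ± 10.7 and 178 ± 30.8 FPKM (SD, n = 3 each), and no difference passed either threshold. The log2 differences were -0.27 between WT stages (SE 0.10, adjusted p = 0.310 in limma), 0.33 between genotypes at stage 2 (SE 0.14, adjusted p = 0.542 in limma) and 0.61 between *Med23*-deficient and WT stage 3 cells (SE 0.15, adjusted p = 0.189 in limma). *Cd40lg* is X-linked and its lowest value was in WT stage 3 replicate 2, the library with *Xist*; without it the first and last differences were -0.20 and 0.53.

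*Tnfsf8* (ENSMUSG00000028362, chromosome 4, 63831308 to 63861347, minus strand) encodes CD30 ligand, a costimulatory ligand of activated T cells. It was listed at 0 FPKM in all 3 WT stage 2 libraries, at 0.28, 1.30 and 0.78 in WT stage 3, and at 0.62, 0.35 and 0.69 in *Med23*-deficient stage 2. No library of the latter groups was at 0, but the levels were low in all of them, and a fold against WT stage 2 cannot be formed. The limma adjusted p was 0.171 for WT stage 3 and 0.117 for *Med23*-deficient cells against WT stage 2, so neither passed.

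**Figure D3:**
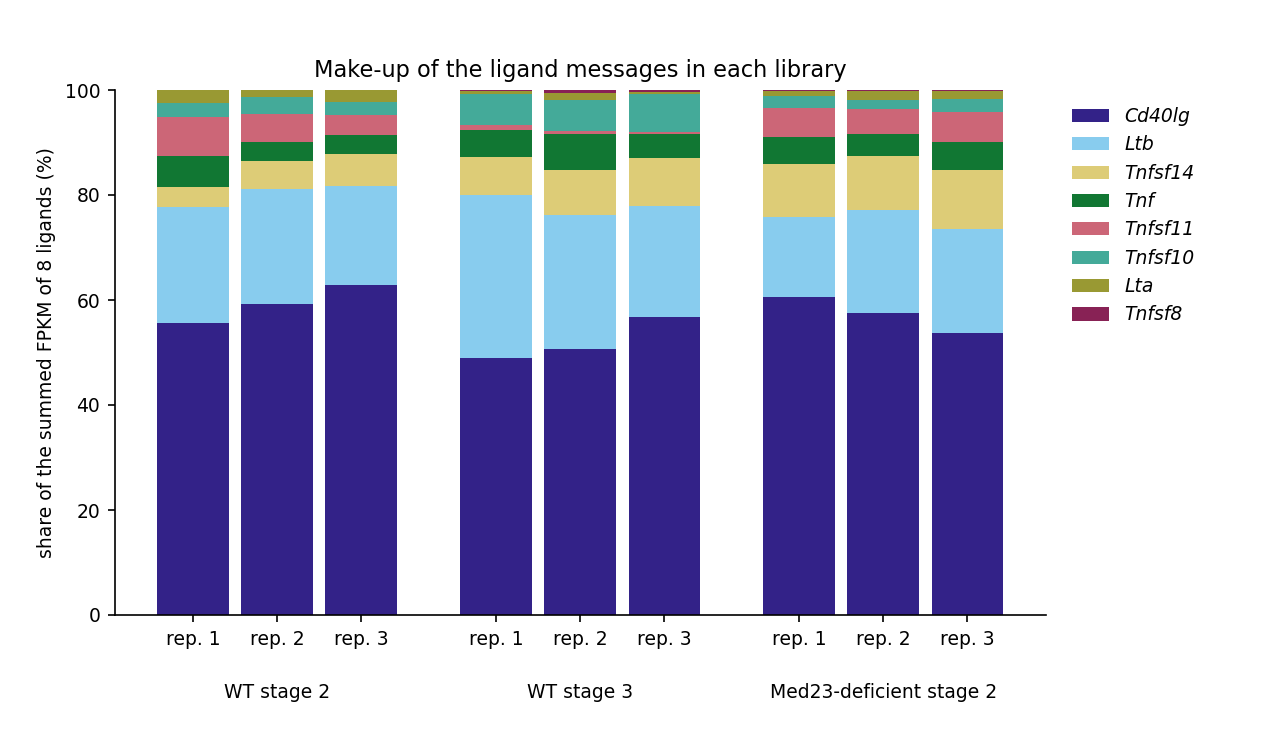
Share of each ligand in the summed FPKM of the 8 ligands (y axis, %, stacked to 100) in each library (x axis, rep. = replicate). *Cd40lg* holds 49.0 to 62.9% in every library, the share of *Tnfsf11* is 3.76 to 7.54% in WT stage 2 and 0.475 to 0.936% in stage 3, and that of *Tnfsf14* is 10.0 to 11.2% in *Med23*-deficient cells.

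The 8 ligands summed to 229 to 245 FPKM in WT stage 2, 205 to 244 in WT stage 3 and 269 to 338 in *Med23*-deficient stage 2. *Cd40lg* and *Ltb*, the next most abundant, made up most of this sum in each library. *Cd40lg* took 59.3 ± 3.67%, 52.2 ± 4.13% and 57.3 ± 3.41% of it (SD, n = 3 each), and *Ltb* 20.9 ± 1.91%, 25.9 ± 4.99% and 18.3 ± 2.59%. Behind these, the order in WT stage 2 was *Tnfsf11*, *Tnfsf14*, *Tnf*, *Tnfsf10* and *Lta* by mean FPKM, in which *Tnfsf11*, *Tnfsf14* and *Tnf* did not differ beyond the spread between libraries. In WT stage 3 *Tnfsf11* dropped behind *Lta*, with overlapping values, and *Tnfsf14* and *Tnfsf10* came before *Tnf*, *Tnfsf10* with overlap. In *Med23*-deficient cells *Tnfsf14* led *Tnfsf11* and *Tnf*, without overlap. The share of *Tnfsf14* was 5.10 ± 1.17% in WT stage 2, 8.31 ± 0.984% in WT stage 3 and 10.5 ± 0.626% in *Med23*-deficient cells, and that of *Tnfsf10* 2.84 ± 0.395%, 6.32 ± 0.731% and 2.16 ± 0.443% (SD, n = 3 each). *Tnfsf8* took at most 0.635%.

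Genes with the profile closest to a ligand were sought among 10339 genes over the 9 libraries, for the 3 ligands whose group means of log2(FPKM + 1) spanned at least 1 (0.98 for *Tnfsf10*, which was not taken), by the root mean square difference of log2(FPKM + 1) after centring each gene on its own mean. The genes closest to *Tnfsf11* were *Mapk11*, which encodes the kinase p38 beta, at 0.347, and *Themis*, a regulator of T cell receptor signalling in thymocytes, at 0.398, where *Tnfsf11* itself deviated by 1.32 from its mean. *Mapk11* measured 6.46, 6.34 and 6.78 FPKM in WT stage 2, 0.15, 0.15 and 0 in WT stage 3, and 12.16, 8.84 and 8.25 in *Med23*-deficient cells, lower in stage 3 and higher in both stage 2 groups, as *Tnfsf11* was. The genes closest to *Tnfsf14* were *Ighm*, the immunoglobulin mu constant gene, at 0.184 and *AI504432*, a non-coding gene, at 0.230, where *Tnfsf14* deviated by 0.588. *Ighm* measured 31.19, 49.70 and 40.64 FPKM in WT stage 2, 55.10, 50.21 and 46.02 in WT stage 3, and 104.14, 90.36 and 85.59 in *Med23*-deficient cells, in which the B cell markers *Cd79a* and *Cd79b* were both at 0. The genes closest to *Lta*, which deviated by 0.587, were *Plcb4*, a phospholipase C gene, at 0.164 and *Acot11*, an acyl-CoA thioesterase gene, at 0.249, both at low levels of at most 3.32 FPKM. These are the nearest of many genes, so that some likeness had to be found, and they are given as a description with no test.

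**Figure D4:**
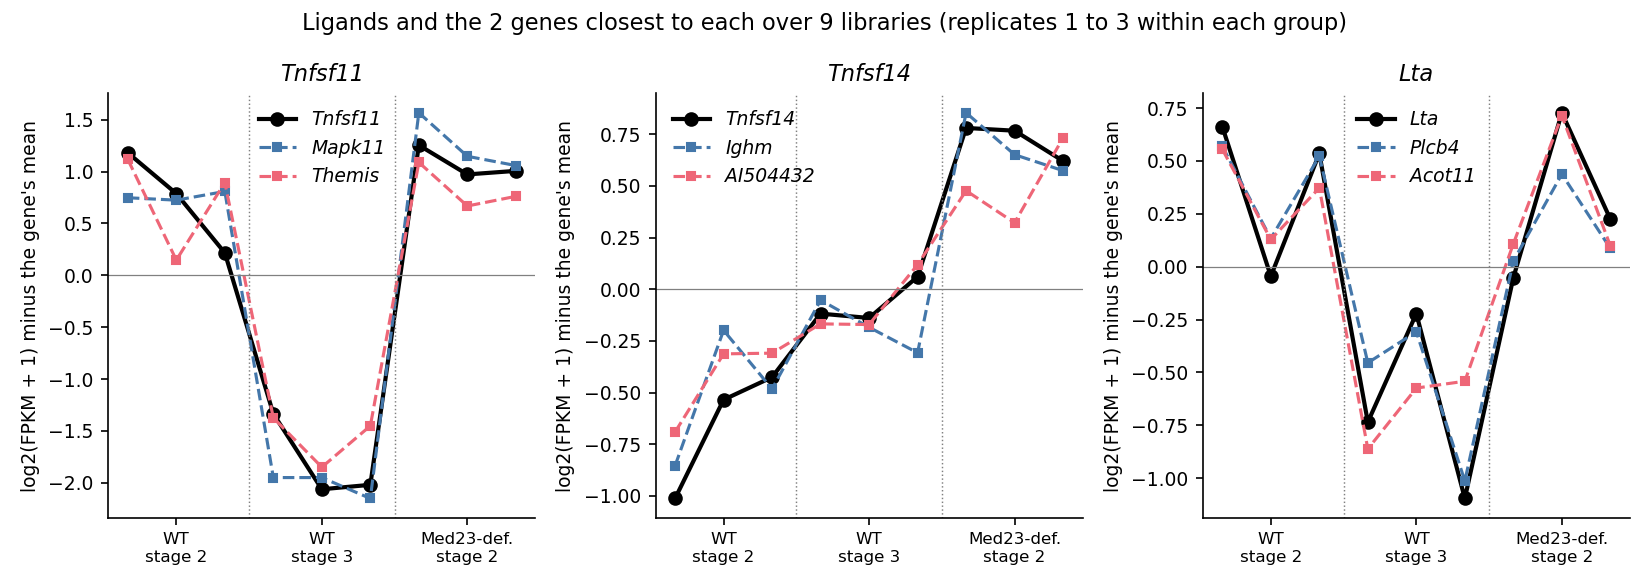
log2(FPKM + 1) minus each gene's own mean (y axis) in the 9 libraries (x axis, replicates 1 to 3 in each group, joined only to guide the eye) for *Tnfsf11*, *Tnfsf14* and *Lta* (black) and the 2 genes closest to each. *Mapk11* and *Themis* share the low stage 3 values of *Tnfsf11*, and *Ighm* and *AI504432* share the high values of *Tnfsf14* in *Med23*-deficient cells.

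Of the 10 other TNF superfamily ligands listed for comparison, 5 were analysed here and 2 of these reached a mean of 1 FPKM in a group. *Fasl*, the Fas ligand of cytotoxic cells, measured 9.34, 17.69 and 18.95 FPKM in WT stage 2, 49.54, 59.59 and 68.11 in WT stage 3, and 17.93, 14.55 and 35.68 in *Med23*-deficient stage 2. It rose by 1.93 on the log2 scale between WT stages (SE 0.28, adjusted p = 0.0399 in limma) and was lower in *Med23*-deficient than in WT stage 3 cells (log2 fold change -1.43, SE 0.33, adjusted p = 0.161 in limma, past the fold and p thresholds). Without WT stage 3 replicate 2 these were 1.91 and -1.42 (adjusted p = 0.122 and 0.36 in limma), still past fold and p; the first adjusted p passed only with all libraries or without WT stage 2 replicate 1. *Fasl* and *Tnfsf10* thus each had stage 3 values above all stage 2 values, although *Tnfsf10* passed neither threshold. *Tnfsf9*, the ligand of the costimulatory receptor CD137, measured 0.79, 0 and 0 FPKM in WT stage 2, 1.51, 1.64 and 2.09 in WT stage 3, and 4.64, 0.85 and 1.30 in *Med23*-deficient stage 2, and passed the fold and p thresholds in both comparisons with WT stage 2 (adjusted p = 0.137 and 0.492 in limma). The call in *Med23*-deficient cells was lost without their replicate 1 or 3 or without WT stage 2 replicate 2 or 3, and that in stage 3 held without any 1 library (1.20 without WT stage 3 replicate 2). *Tnfsf4*, *Tnfsf12* and *Tnfsf13b* were at 0.25 FPKM or less in every library.

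Of the 9 receptors of the 8 ligands listed, 7 were analysed here and none passed the fold and p thresholds or the limma adjusted p in any comparison; 2, 1 and 2 of them had an unadjusted p of at most 0.05 in the order of comparisons above, against 13.2%, 9.58% and 10.2% of all genes. The TNF receptor genes *Tnfrsf1a* and *Tnfrsf1b* lay at 8.56 to 17.05 and 23.97 to 33.00 FPKM over the 9 libraries, and their WT stage 3 values lay above all WT stage 2 values, by 0.55 and 0.36 on the log2 scale (SE 0.14 and 0.08, adjusted p = 0.145 and 0.109 in limma; 0.48 and 0.37 without WT stage 3 replicate 2). The *Med23*-deficient values of *Tnfrsf1a*, 16.63, 11.80 and 12.12 FPKM, also lay above all WT stage 2 values, by 0.37 (SE 0.18, adjusted p = 0.579 in limma). *Tnfrsf14*, the HVEM gene and receptor of LIGHT, lay at 10.11 to 18.38 FPKM with overlapping groups in each comparison, and differed by 0.19 between the genotypes at stage 2 (SE 0.21, adjusted p = 0.760 in limma). *Tnfrsf10b*, the TRAIL receptor gene, was low at 0.86 to 2.16 FPKM. *Cd40*, *Ltbr* and *Tnfrsf11a*, the receptors of CD40 ligand, of the lymphotoxin complex and of RANK ligand, stayed under 1 FPKM in all 9 libraries, so messages of the ligands *Cd40lg*, *Ltb* and *Tnfsf11* were found in cells with little message of their receptors.

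**Figure D5:**
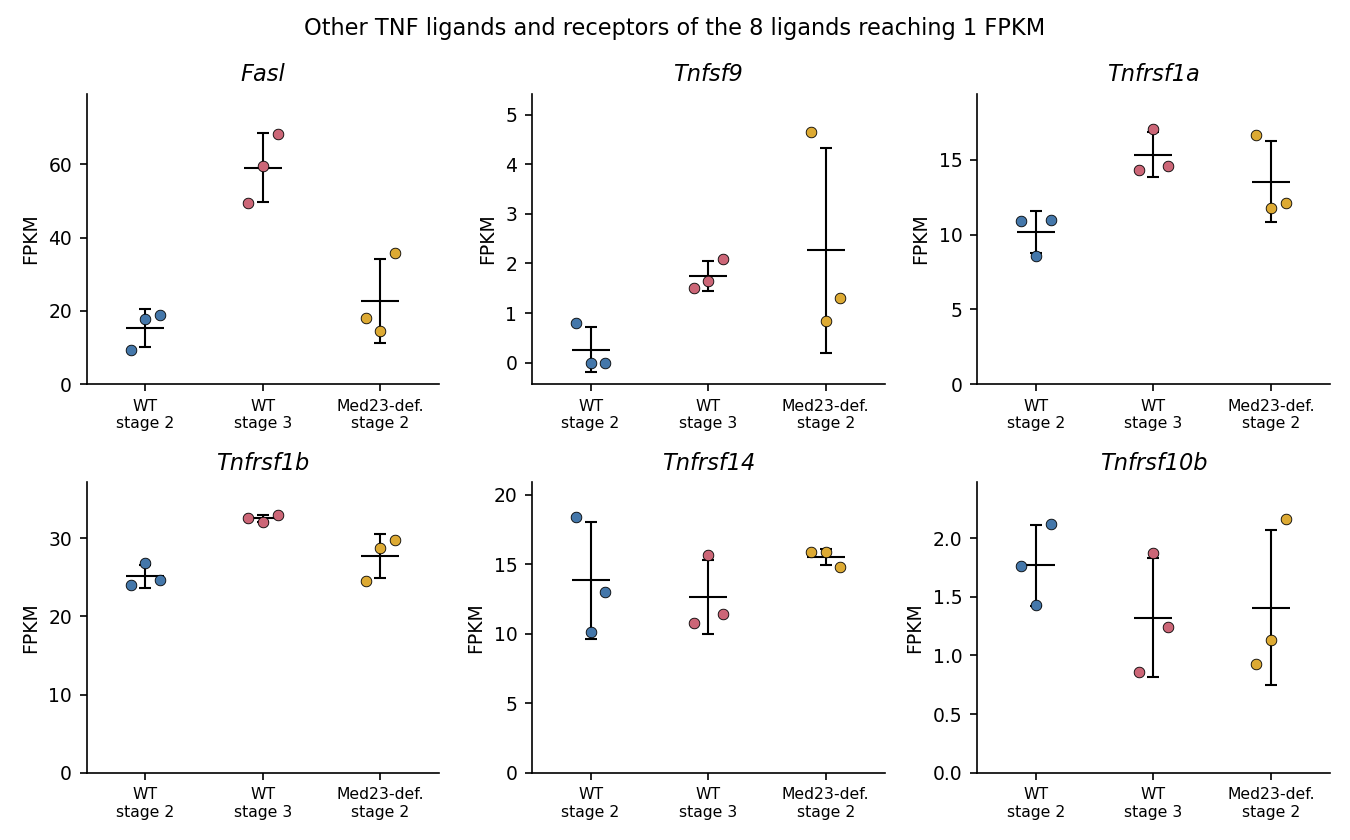
FPKM (y axis, linear, 1 scale per gene) of the 2 other TNF ligands and the 4 receptors of the 8 ligands that reached a mean of 1 FPKM in a group, by group; points are libraries in the order of replicates 1 to 3, and bars give the mean and SD (n = 3). *Fasl* sits at 49.54 to 68.11 in WT stage 3 and at 35.68 or less elsewhere, while the *Tnfrsf14* groups overlap.

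Of 15 adaptor and death genes downstream of TNF receptors, none passed the limma adjusted p. In the 3 comparisons 2, 1 and 2 had an unadjusted p of at most 0.05, against 13.2%, 9.58% and 10.2% of all genes. By fold and p 0, 0 and 1 passed, against 3.60%, 2.11% and 2.86% of all genes. The 1 gene was *Tnfaip3*, which encodes the NF-kB inhibitor A20, at 23.85, 47.37 and 60.37 FPKM in WT stage 3 and 10.07, 18.37 and 20.37 in *Med23*-deficient cells (log2 fold change -1.34, SE 0.41, adjusted p = 0.293 in limma), a call lost without WT stage 3 replicate 2 (-1.23); WT stage 2, at 10.54, 34.88 and 27.92, overlapped with both. *Ripk1*, a kinase of the TNF receptor complex named here after its values were seen, measured 11.06, 10.68 and 12.27 FPKM in WT stage 2, 9.81, 13.21 and 11.43 in WT stage 3, and 5.50, 5.41 and 6.48 in *Med23*-deficient cells. Its difference from WT stage 2 was -0.86 (SE 0.13, adjusted p = 0.0908 in limma), under the 2-fold threshold. Another 11 genes control *Tnf* mRNA stability or the shedding of ligands from the membrane. None of them passed the fold and p thresholds or the limma adjusted p in any comparison. An unadjusted p of at most 0.05 was found for 2, 1 and 1, against 13.2%, 9.58% and 10.2% of all genes.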

How the data were processed

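The authors trimmed reads of stranded total RNA libraries with Trimmomatic 0.36, aligned them to mm10 with HISAT2, kept reads hitting at most 2 loci, quantified GENCODE vM12 genes with StringTie, and deposited 1 table of FPKM (normalized for transcript length and mapped reads) with replicates kept apart. FPKM carry no count error, so low values are less certain than their spread shows. From these values log2(FPKM + 1) was fitted in limma 3.58.1 (R 4.3.3; lmFit, then eBayes with trend) to the 6 libraries of each comparison; this scale understates changes of low genes. The method was tested on simulated data. Summaries and figures used Python 3.11.15, numpy 2.4.6, pandas 2.3.3 and matplotlib 3.10.9. Named were the 8 ligands, other ligands with a mean of at least 1 FPKM in a group, receptors of the 8, listed signalling genes past the fold and p thresholds, the 2 closest genes of each ligand whose group means of log2(FPKM + 1) spanned at least 1, and genes starting within 50 kb. One list of iNKT subset markers is not reported here. The ligands and the gene lists were chosen with earlier results of these data known. Alternatives were other pseudocounts, filters, scalings, models, the replicate block and each library left out.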

Additional observations from a re-analysis of the deposited data

How the results depend on the processing

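The number of ligands past the fold and p thresholds between WT stages was 2, and 4 with a pseudocount of 0.1 or 0.01 (with *Tnfsf8* and *Tnfsf10* added), 3 with a common upper quartile or quantile normalization (*Tnfsf10* added), 1 in a per-gene linear model that takes library size as a covariate (Ballgown-style), and 1 to 3 with 1 library left out. By adjusted p it was 1; it was 2 with either lower pseudocount, with genes of a mean of at least 1 FPKM, a common upper quartile, quantile normalization or all 9 libraries in 1 fit, and 0 with all genes of the table, the Ballgown-style model, the replicate block or any library left out (range 0 to 0). Between *Med23*-deficient and WT stage 2 cells it was 1 by fold and p, 2 with either lower pseudocount and 1 to 1 with a library left out; by adjusted p it was 0, and 1 (*Tnfsf14*) with the same 6 alternatives as above. Between *Med23*-deficient stage 2 and WT stage 3 cells it was 1 by fold and p, 3 with either lower pseudocount, 2 on the TPM scale and 1 to 3 with a library left out; by adjusted p it was 2, and 3 with genes of a mean of at least 1 FPKM or with all 9 libraries in 1 fit (*Tnfsf10* added), 0 in the Ballgown-style model, 1 with the replicate block and 1 to 1 with a library left out. *Tnfsf11* kept its direction and its fold and p call under all alternatives, between -3.25 and -2.31 and between 2.75 and 3.62 in the comparisons with WT stage 3, and so did *Tnfsf14* between the genotypes at stage 2. On the TPM scale the median log2 change of all genes with a mean of at least 1 FPKM moved from -0.05 to -0.16 between the genotypes at stage 2, where *Tnfsf14* was at 1.25.

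Directions turned only where the difference was small. *Tnf* between WT stages was -0.19 in the Ballgown-style model, and *Ltb* ran from -0.0044 (without WT stage 3 replicate 1) to 0.35 with a library left out. Between the genotypes at stage 2, *Lta* ran from -0.30 to 0.092 (above 0 without *Med23*-deficient replicate 1 or WT stage 2 replicate 1). *Tnfsf10* there was 0.075 with a common upper quartile, 0.061 with quantile normalization, 0.047 in the Ballgown-style model, and -0.14 to 0.11 with a library left out (above 0 without replicate 2 of either genotype). Between *Med23*-deficient and WT stage 3 cells, *Ltb* was 0.000592 with a common upper quartile and -0.17 to 0.19 with a library left out (above 0 without *Med23*-deficient replicate 1 or 3 or WT stage 3 replicate 1), and *Tnfsf8* was -0.39 to 0.035 (above 0 without WT stage 3 replicate 2). The cause of these changes was not tested. Same-numbered libraries correlated at 0.00429 to 0.272 in their deviations from the group means, not all above 0.1, so the numbers were not taken as pairs; with the replicate block the counts of ligands were 2, 1 and 1 by fold and p and 0, 0 and 1 by adjusted p. Every library correlated best with its own number between the WT stages, as a hint from the data, and not in the other comparisons. Replicate 2 of WT stage 2 had *Xist* at 0.01 and *Ddx3y* at 15.02 FPKM, and replicate 2 of WT stage 3 had 47.45 and 0. These libraries therefore did not come from the same mice. Whether same-numbered libraries were prepared together cannot be told from the labels. Depth is unknown, and for ligands near 0 such as *Tnfsf8* the values cannot show how few reads they rest on.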

Other observations

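The ligands were also placed among their neighbours. Within 50 kb of the start of a ligand, 19 other gene models started, 11 of them with a mean of at least 1 FPKM in a group, and nearly all around *Tnf*, *Lta* and *Ltb*. In each comparison 2 of the 19 were past fold and p, where 3.60%, 2.11% and 2.86% of all genes were. *Ncr3-ps*, a pseudogene model, was listed at means of 0.277 FPKM at WT stage 2, 5.72 at WT stage 3 and 0 in *Med23*-deficient cells, and passed in both comparisons with stage 3, also without WT stage 3 replicate 2. *Mir6973a*, inside *Ltb*, passed in both comparisons with WT stage 2. Without WT stage 3 replicate 2 its log2 fold change between WT stages was 1.12, where it was 1.44 with all libraries, and still passed. *Gm14718*, which starts 11500 bases from the start of *Cd40lg*, had means of 1.76, 1.18 and 8.67 FPKM and was higher in *Med23*-deficient cells in both of their comparisons, while *Cd40lg* passed in neither. Against WT stage 3 the log2 fold change of *Gm14718* was 2.22 (adjusted p = 0.0454 in limma). Without WT stage 3 replicate 2 it was 1.88 (adjusted p = 0.0585 in limma), still past fold and p. The abundant protein-coding neighbours *Prrc2a*, *Ddx39b* and *Nfkbil1* passed in none: *Prrc2a* had means of 63.7, 61.1 and 59.7 FPKM. *Mir6973a* and *Gm14718* are short or lowly expressed models, and they are given as values only.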
